A study of Arabidopsis thaliana with 15 samples.

Results

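Transcripts of whole Arabidopsis thaliana seedlings carrying an induced FAMA-EAR were compared with those of uninduced seedlings collected at the same time. The comparison takes the 3 arrays of FAMA-EAR at 48 h and the 3 control arrays at 48 h, 6 of the 15 arrays of the series. All 22746 probe sets other than the 64 array controls were read, of 22810 on the array. Nuclear genes are described apart from plastid-encoded ones, which were 69 probe sets for 69 genes.

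All seedlings were of ecotype Columbia, grew for 5 days on sucrose medium at 22 °C in constant light, and were then moved to new plates. The FAMA-EAR seedlings stood on 10 µM estrogen for 48 h and were 7 days old at harvest. The control seedlings of the same age stood on plates with no estrogen. Another group of 3 arrays, FAMA at 48 h, had the same dose of estrogen for the same time and serves as the second reference. No source used here gives the genotype of the controls beyond the ecotype, the number of transgenic lines, or whether replicates came from separate cultures. Estrogen and the construct therefore cannot be told apart against the control, and p-values reflect a spread between replicates that may be technical only.

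FAMA belongs to the basic helix-loop-helix family and works at the last step of the stomatal lineage, where it stops the division of guard mother cells and starts guard cell identity. The EAR motif is a short repression domain of plants, and a factor fused to it can act as a repressor of the genes it binds. Plastid genes, the other set described here, encode core parts of the photosynthetic complexes, of the plastid ribosome and of a bacterial-type RNA polymerase, and are read by that enzyme and by a polymerase of phage type encoded in the nucleus.

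Values are MAS5 signals, an intensity in arbitrary units, and differences are on the log2(signal + 20) scale, which understates the change of dim probe sets. Rises and falls are those with an adjusted p below 0.05 in limma, fitted over all 15 arrays with Benjamini-Hochberg adjustment over the 22746 probe sets, and SE is the standard error of that fit. For a single gene the smallest p of an exact two-sided test with 3 and 3 arrays is 0.1. The median signal was 188.2 to 194.5 on the 6 arrays. Replicate 3 of FAMA at 4 h, which enters the fit only through the shared spread, stood apart with a median of 239.5, and without it the count of 729 changed probe sets given next became 1176.

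FAMA itself was read first. Its probe set gave 3456.5, 2726 and 2998.5 on the FAMA-EAR arrays, 255, 246 and 229.6 on the control arrays and 18576, 16934 and 18563 on the FAMA arrays. The 3 groups did not overlap. The rise over the control was 3.54 (SE 0.0875, adjusted p = 1.52e-16), and the difference from FAMA was -2.56 (adjusted p = 2.06e-14). The probe set does not tell the transcript of the transgene from that of the plant's own gene.

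Across all probe sets, 317 rose and 412 fell with FAMA-EAR, 1.39% and 1.81% of those tested, or 3.2% in either direction. Most of these changes were small, and 45 rises and 111 falls were at least 2-fold. Of 13367 probe sets for 1 nuclear gene, 173 rose and 165 fell. Counted with 1 probe set for each of 13217 nuclear genes, 173 rose and 156 fell, 1.31% and 1.18%, or 2.49% together. The median over these nuclear genes was 0.0005, and the median of the changed probe sets was 0.56 for the rises and -0.69 for the falls. A further 8730 probe sets had no gene in the annotation used here, and 127 of them rose and 192 fell. A gene is called measured below where that annotation pairs it alone with a probe set. Genes not called measured may still be read by probe sets with no gene or several genes. In whole seedlings, fewer cells of a type and less RNA per cell cannot be told apart.

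The nuclear rises were led by genes that were at or near the floor of the array in controls. AT1G43590, which the reference lists as a pseudogene, gave 371.5, 428 and 421 on the FAMA-EAR arrays and 33, 11.8 and 2.6 on the control arrays. It rose by 3.66 (SE 0.322, adjusted p = 5.92e-07). QQS, an orphan gene known for its effect on leaf starch content, gave 479.7, 341 and 394 against 25.7, 47.9 and 4.5. Its rise was 3.31 (SE 0.393, adjusted p = 2.80e-05), and on the FAMA arrays it stayed at 53.2, 31.5 and 9.9. For both genes every FAMA-EAR array lay far above every other 48 h array. Both were higher than in FAMA as well, by 2.58 (adjusted p = 2.93e-06) for AT1G43590 and by 3.12 (adjusted p = 3.26e-06) for QQS. Since their control signals were at the floor, the sizes depend on the offset and ran from 2.14 to 5.13 and from 2.01 to 4.38 over the alternatives.

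GAT1_2.1, which encodes a protein of the glutamine amidotransferase type, gave 250.3, 146 and 172 on the FAMA-EAR arrays, 7.6, 14.1 and 18.4 on the control arrays and 128, 106.5 and 161 on the FAMA arrays. It rose by 2.63 over the control (SE 0.342, adjusted p = 8.77e-05), and this size ran from 1.34 to 3.77 over the alternatives. FAMA arrays overlapped FAMA-EAR arrays, and the difference between these groups was 0.45 (adjusted p = 0.43). AT2G28270 had the same order, with 91.1, 92.9 and 139.6 with FAMA-EAR, 17.4, 10.6 and 34.5 in controls and 90, 106 and 60.4 with FAMA. Its rise over the control was 1.67, or 0.78 with an offset of 100, and its difference from FAMA was 0.28 (adjusted p = 0.706). Of the 15 largest nuclear rises among probe sets with a mean of at least 100 in the higher group, these 2 did not pass against FAMA and the other 13 were higher than in FAMA (10.1% of all nuclear genes were). These 15 were chosen for high signals on the same FAMA-EAR arrays, so the choice favours that direction and nothing is read from the count.

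Brighter genes among these rises included PDF2.1, a plant defensin, whose family holds small antimicrobial peptides of the cell wall. Its signals were 1215, 685.5 and 666 with FAMA-EAR and 426, 338 and 312 in controls, with 277, 309.8 and 309 on the FAMA arrays. It rose by 1.16 (SE 0.187, adjusted p = 0.000761), and the first FAMA-EAR array was well above the other two. AT3G59780 showed a wider spread of the same kind, with 2639, 1301 and 862.5 against 657, 636 and 600.2, and rose by 1.16 (SE 0.248, adjusted p = 0.0103, but 0.07 with only the 6 arrays fitted and 0.103 with no variance trend, and a rise of 0.73 without the first FAMA-EAR array). AT5G62360 gave 603, 868 and 671 with FAMA-EAR, 296, 342 and 292 in controls and 152.5, 161 and 151 with FAMA. None of these groups overlapped, and AT5G62360 rose by 1.14 with FAMA-EAR (adjusted p = 0.0016). Its log2 change with FAMA was -0.92 (adjusted p = 0.00145), and the 2 induced groups differed by 2.05 (adjusted p = 7.82e-08).

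The other 8 of the 15 had log2 rises from 1.18 in AT4G07820 to 1.71 in AT4G39675. The calls of AT1G26250 (1.44), AT3G08670 (1.20) and AT4G07820 held in each alternative run. With an offset of 100 the rises of AT3G51350, AT5G10770, AT1G26250, AT5G59680, AT2G35820 and AT4G07820 were 0.84, 0.94, 0.89, 0.77, 0.75 and 0.74. The calls of AT4G39675, AT3G51350, AT5G10770, AT5G59680, AT2G35820 and, from the paragraph before the last, AT2G28270 did not hold in each. Leaving out the second control array gave adjusted p = 0.0742 for AT4G39675 (a rise of 1.12), 0.0842 for AT3G51350, 0.154 for AT5G10770, 0.118 for AT5G59680, 0.137 for AT2G35820 and 0.0833 for AT2G28270. Other single arrays ended these calls too, with adjusted p up to 0.169 for AT5G10770 and 0.165 for AT2G35820.

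**Figure D1:**
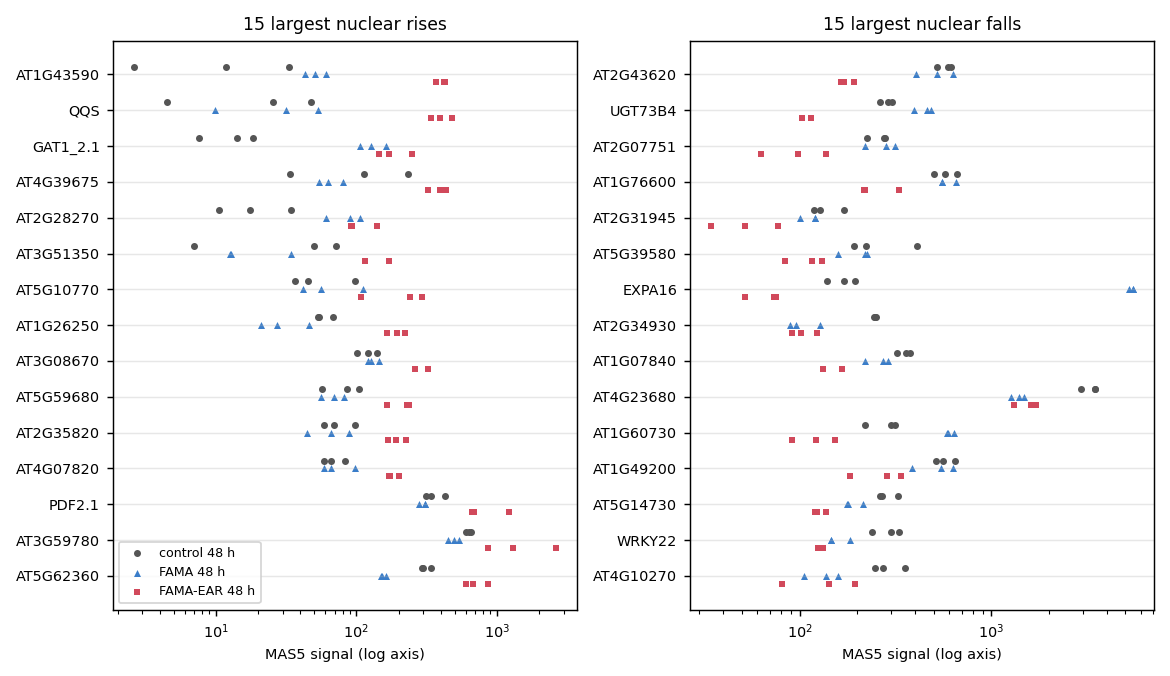
MAS5 signal (log axis) of the 15 largest nuclear rises and the 15 largest nuclear falls, 1 point per array, for control (grey circles), FAMA (blue triangles) and FAMA-EAR (red squares) at 48 h. For each gene the 3 FAMA-EAR points lie to 1 side of the 3 control points, while the FAMA points lie on either side, as for EXPA16, where they exceed every control point.

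Among nuclear falls, AT2G43620 was the largest of the 15, with 171, 165.5 and 192 on the FAMA-EAR arrays and 616, 594 and 522 on the control arrays. It fell by 1.60 (SE 0.209, adjusted p = 9.02e-05), and FAMA arrays at 405, 518 and 633 overlapped the controls. AT4G23680, a bright probe set, gave 1706, 1320.5 and 1610.3 against 2929.5, 3484 and 3474 and fell by 1.09 (SE 0.109, adjusted p = 4.27e-06). Its FAMA signals were 1261.5, 1390.3 and 1479, overlapping those of FAMA-EAR, so that both induced groups lay below every control array. The same held for AT2G34930, at 102, 91.3 and 123 with FAMA-EAR, 88.9, 95.4 and 128 with FAMA and 246, 248 and 250.0 in controls. AT1G60730 instead went opposite ways, with 91.8, 121 and 153.5 under FAMA-EAR, 316, 299 and 219.9 in controls and 584, 594 and 639 under FAMA, and no overlap of the 3 groups.

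EXPA16 encodes an expansin, a protein that loosens cell walls. It gave 52, 73.2 and 75.4 with FAMA-EAR, 138, 194 and 171 in controls and 5500.3, 5253 and 5486 with FAMA, with no overlap. It fell by 1.11 with FAMA-EAR (SE 0.145, adjusted p = 8.96e-05), rose by 4.86 with FAMA (adjusted p = 1.38e-15), and differed by -5.98 between the induced groups (adjusted p = 5.21e-17). Of 19 measured expansin and expansin-like genes it was the 1 that changed with FAMA-EAR, where 2.49% of all nuclear genes did, and the median of the 19 was -0.08. BHLH101, a transcription factor of the iron deficiency response, had the same order of groups, with 3.5, 32.4 and 21.3 with FAMA-EAR, 95.1, 83.7 and 120.5 in controls and 506, 512 and 532.5 with FAMA. Its log2 change was -1.68 with FAMA-EAR (adjusted p = 0.00102) and 2.18 with FAMA (adjusted p = 4.73e-06). With 1 FAMA-EAR array near 0, the fall of BHLH101 ran from -2.73 to -0.75 over the alternatives, and that of EXPA16 was -0.68 with an offset of 100. The other 2 measured genes of the iron deficiency list, PYE and AT3G13610, did not pass.

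Of the 15 largest nuclear falls, 11 were also lower than with FAMA and 0 were higher (9.29% of all nuclear genes were lower). These genes were chosen for low signals on the FAMA-EAR arrays that enter both comparisons, so nothing is read from that count either. The exceptions were AT2G34930, AT4G23680, AT4G10270 and WRKY22, a transcription factor of defence signalling. WRKY22 gave 129.5, 125 and 132 with FAMA-EAR and 239, 301 and 329 in controls, a fall of 1.05 (SE 0.278, adjusted p = 0.0418). Its call ended without any 1 of the 6 arrays compared, with adjusted p = 0.0571 to 0.158. The call of AT4G10270 (-1.02) ended without any of these arrays except the third FAMA-EAR array, with adjusted p = 0.0646 to 0.235. The fall of AT2G31945 was -0.64 with an offset of 100. The call of AT1G49200 (-1.07) ended without any except that same array, with adjusted p = 0.0634 to 0.159, and that of AT2G31945 (-1.13) without the third array of either group, with adjusted p = 0.0783 and 0.0867. The remaining falls, of AT1G76600, AT5G39580, AT1G07840 and AT5G14730, lay between -1.14 and -1.05, and that of AT5G39580 did not pass with only the 6 arrays fitted (adjusted p = 0.0526). AT2G07751 (-1.27, adjusted p = 0.00619, and 0.0551 with no variance trend) is counted among nuclear genes but lies in the region of chromosome 2 that carries a copy of the mitochondrial genome, so its probes may also read mitochondrial transcripts.

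Glycosyltransferases of the UGT family, which attach sugars to hormones, phenolics and foreign compounds, were measured for 47 genes with a UGT symbol. Of these 7 fell, 1 rose and 39 did not pass, with a median of -0.08, where 1.18% of all nuclear genes fell and 1.31% rose. This set was taken by symbol after the values were seen, so nothing is read from its counts. In the family sought by description, 43 UDP-glycosyltransferase genes were measured, of which 6 fell and 1 rose. Most of them are in the symbol set too, so this is not a separate count and nothing is read from it. UGT73B4 gave 103, 115 and 102 with FAMA-EAR and 264, 289 and 304 in controls, and fell by 1.27 (SE 0.134, adjusted p = 7.02e-06). UGT73B5, its neighbour on chromosome 2, gave 95.4, 107 and 97.5 against 170.4, 199.9 and 195 and fell by 0.79 (SE 0.171, adjusted p = 0.0112). For both, no FAMA-EAR array reached a control array, and FAMA arrays were higher still, at 463, 396 and 483 and 262, 247 and 259. The fall of UGT73B5 was -0.53 with an offset of 100, and its call ended without the second or the third control array, with adjusted p = 0.0541 and 0.0527. The 2 genes are close copies, and how far their probe sets read each other was not tested.

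UGT87A2 gave 337, 279.7 and 356 against 479, 583.5 and 570.4 and fell by 0.72 (SE 0.11, adjusted p = 0.00052). UGT72E1, an enzyme that glucosylates lignin precursors, gave 1008, 987 and 1007 against 1424, 1249 and 1502.5 and fell by 0.46 (SE 0.091, adjusted p = 0.00544). With FAMA, the log2 change over the same controls was 0.46 for UGT87A2 and -1.18 for UGT72E1, both past the threshold. UGT73B1 (-0.57), UGT72E2 (-0.46) and UGT74D1 (-0.33), which glucosylates auxin, also fell, and UGT71C1 rose by 0.67. The calls of these 4 genes each ended without the second or the third FAMA-EAR array and without the second or the third control array, with adjusted p = 0.0573 to 0.236. IAGLU, another glucosyltransferase for auxin, is listed under its own symbol and gave 354, 359 and 403 against 706, 628 and 838, a fall of 0.92 (SE 0.122, adjusted p = 0.00011).

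Glutathione transferases of the tau class, which conjugate glutathione to reactive compounds, were measured for 11 GSTU genes. Of these 2 fell, 1 rose and 8 did not pass, with a median of -0.05, where 1.18% of all nuclear genes fell and 1.31% rose. This set too was taken by symbol after the values were seen, and nothing is read from its counts. Of 13 glutathione transferases sought by description, 2 fell and 1 rose, but they include the same 11 GSTU genes and are not a separate count. GSTU25 gave 470.5, 573.5 and 585 with FAMA-EAR and 1055.5, 1142 and 1143 in controls, and fell by 1.01 (SE 0.116, adjusted p = 1.68e-05). GSTU26, its neighbour on chromosome 1, gave 557.5, 601 and 668 against 469, 317 and 366 and rose by 0.65 (SE 0.138, adjusted p = 0.00982). Neither pair of groups overlapped. The call of GSTU26 ended without the third FAMA-EAR or the second control array, with adjusted p = 0.0617 and 0.0685. GSTU22 gave 565.5, 668 and 716.5 against 971, 911.5 and 1124 and fell by 0.61 (SE 0.109, adjusted p = 0.00233). Alkenal reductase, AER, which reduces reactive carbonyls made from lipid peroxides, gave 642, 385 and 607 against 950.4, 1120.3 and 1139 and fell by 0.98 (SE 0.15, adjusted p = 0.000521). Against FAMA the differences were -1.23 for GSTU25, -1.14 for GSTU22 and -1.23 for AER, all past the threshold.

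**Figure D2:**
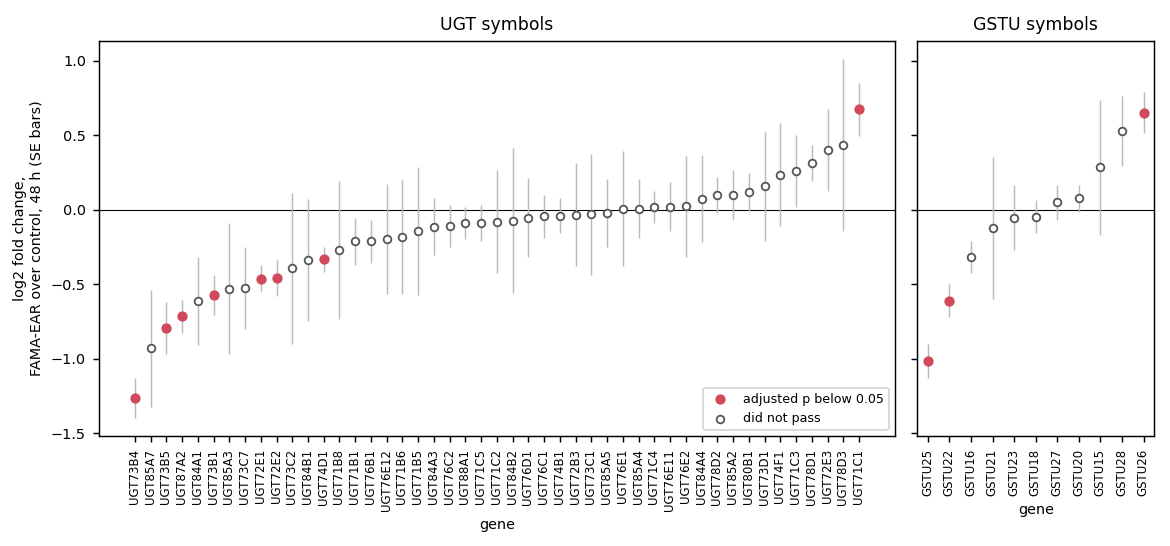
Log2 fold change of FAMA-EAR over control at 48 h (y axis, bars are SE) for 47 genes with a UGT symbol and 11 with a GSTU symbol, sorted by value, with filled points for an adjusted p below 0.05. In the UGT panel 7 filled points lie below 0 and 1 above, and in the GSTU panel 2 lie below and 1 above.

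Cold and dehydration genes were represented by 3 of 9 listed genes, of which 2 rose, where 1.31% of all nuclear genes did. The list is short and was made with earlier results of these data known, so nothing is read from its count. Of 7 measured genes for late embryogenesis abundant proteins, 1 rose and 0 fell, with a median of -0.20. COR47, a dehydrin, gave 4583.5, 4969 and 4576.5 with FAMA-EAR and 3799, 3350.3 and 3609.6 in controls, and rose by 0.39 (SE 0.0833, adjusted p = 0.0101). COR15B, a protein that protects chloroplast membranes in freezing, gave 295, 245 and 356 against 131, 126 and 122 and rose by 1.11 (SE 0.294, adjusted p = 0.0418). The groups did not overlap for either. COR47 lost its call without the second FAMA-EAR or the second control array (adjusted p = 0.0688 and 0.0573) or with equal array medians (adjusted p = 0.0777), and COR15B without any 1 of the 6 arrays (adjusted p = 0.0749 to 0.167). Of 6 measured auxin response genes 1 fell, where 1.18% of all nuclear genes did, and nothing is read from that count either. The gene that fell was WES1, a GH3 enzyme that joins amino acids to auxin and salicylic acid. WES1 gave 480.5, 489 and 512 against 693, 621 and 669.8, a change of -0.41 (adjusted p = 0.0425) whose call also ended without any 1 of the 6 arrays (adjusted p = 0.0661 to 0.143). STZ, a zinc finger factor of stress responses, gave 102, 74.4 and 125 against 180.1, 205.5 and 234 and fell by 0.93 (adjusted p = 0.0136, and -0.62 with an offset of 100), with adjusted p = 0.0888 without the second FAMA-EAR array, 0.0505 without the second and 0.0829 without the third control array. The pectin methylesterase gene ATPMEPCRB fell by 0.77 (adjusted p = 0.0089), with adjusted p = 0.0706 without the second FAMA-EAR array.

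Further nuclear genes with a name are given here because their calls held in each alternative run, a choice made after their values were seen. HEME2, a uroporphyrinogen decarboxylase of the pathway to heme and chlorophyll, gave 4279.6, 4593 and 4317 with FAMA-EAR, 3239, 3235 and 3096.5 in controls and 1727, 2071 and 1895 with FAMA. It rose by 0.46 (SE 0.0768, adjusted p = 0.00117). TAPX, the thylakoid ascorbate peroxidase, which removes hydrogen peroxide in chloroplasts, gave 2608, 2504.5 and 2392, 1676, 1739.7 and 1589 and 1051, 1065 and 1087.5 in the same order of groups, and rose by 0.58 (SE 0.0813, adjusted p = 0.000204). Both are nuclear genes of plastid proteins, and in both the order was FAMA-EAR above control above FAMA, with no overlap. NRPB6B, a subunit shared by nuclear RNA polymerases, rose by 0.60 (adjusted p = 0.00269).

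Falls among these genes included OSM34, an osmotin-like protein of stressed plants, at 332, 381 and 535 against 778, 653 and 775.5, a fall of 0.82 (adjusted p = 0.00183). EXO, a gene of brassinosteroid-promoted growth, gave 1407, 1281 and 1296 against 1955, 2141 and 2354 and fell by 0.68 (adjusted p = 0.000634). OCT5, an organic cation transporter, fell by 0.82 (adjusted p = 0.000717), TBL37 by 0.71 (adjusted p = 0.00133), and NUP1, a protein of the nuclear pore, by 0.69 (adjusted p = 0.000748). RSU1 was at the floor in both induced groups, with 2.6, 1.9 and 3.6 with FAMA-EAR and 2.6, 4.7 and 2.4 with FAMA against 83.6, 63.6 and 103 in controls.

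Few of the listed stomatal and photosynthetic nuclear genes were paired with a probe set in the annotation used here. The others may be on the array without a gene name. At the shares of all nuclear genes that rose (1.31%) or fell (1.18%) lists this short would often hold 0 calls. Nothing is therefore read from their counts. FAMA aside, of 20 listed regulators of the stomatal lineage 3 were measured, MUTE, SPCH and STOMAGEN, with 0 past the threshold and a median of -0.05. Of 17 guard cell genes 4 were measured, with 0 past the threshold and a median of -0.28, and their summed signal was 3297 to 3419 with FAMA-EAR and 3149 to 3744 in controls. AT4G14480, the largest change among them, gave 143, 116 and 112 against 141, 198.5 and 206 (log2 -0.48, adjusted p = 0.214). Nuclear photosynthesis genes were measured for 10 of 52 listed, with 0 past the threshold and a median of -0.04, between -0.15 and 0.11. RCA, the activase of Rubisco, gave 24093.5, 21961 and 19654 with FAMA-EAR and 22016, 26295 and 24543 in controls, and the groups overlapped. CHLM, a methyltransferase of chlorophyll synthesis, stood at -0.35 (adjusted p = 0.0729) and PORB, a protochlorophyllide reductase, at 0.21 (adjusted p = 0.384).

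Markers of roots were read on all 6 arrays as for a whole seedling, with a summed signal for PYK10, EXPA7 and EXPA18 of 17254 to 20266.5 with FAMA-EAR and 18876 to 21726 in controls. The sum gives most weight to the brightest gene. None of these 3 of 14 listed root genes passed, with -0.11 for PYK10, 0.30 for EXPA7, which is the median, and 0.34 for EXPA18. Of 24 measured cytochromes P450, 9 xyloglucan endotransglucosylases, 7 class III peroxidases, 11 tubulin and actin genes and 5 histones, 0 passed in either direction, with medians between -0.05 and 0.03. WRKY factors had a lower median of -0.48 over 7 measured genes, of which WRKY22 fell. Each of these counts stands beside 1.31% rising and 1.18% falling among all nuclear genes.

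Plastid-encoded genes fell in a larger share. Of the 69, 45 fell, 0 rose and 24 did not pass, and 34 of the falls were at least 2-fold, against 1.81% of all probe sets falling. The median over the 69 was -0.98, with quartiles of -1.36 and -0.23, beside -0.008 over all probe sets. In 48 genes all FAMA-EAR arrays lay below all control arrays and in 5 above, where 11.4% and 10.7% of all probe sets did so. With FAMA at 48 h, which shares the controls, 3 plastid genes fell and 2 rose, with a median of -0.14. Of all probe sets, 11.01% fell and 10.59% rose with FAMA over these controls. Against FAMA directly, 43 plastid genes were lower with FAMA-EAR and 3 higher, with a median of -0.84, where 11.1% and 11.6% of all probe sets were.

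The deepest fall was that of accD, a subunit of the acetyl-CoA carboxylase that starts fatty acid synthesis. It gave 299.9, 214 and 151 with FAMA-EAR, 997, 1207.5 and 1139.7 in controls and 978, 1443 and 1129.5 with FAMA, and fell by 2.27 (SE 0.171, adjusted p = 9.61e-08). No FAMA-EAR array came near the other groups. Among the other genes outside the large complexes, clpP, a protease subunit, fell by 1.23 (adjusted p = 0.000466), ycf4, an assembly factor of photosystem I, by 1.55 (adjusted p = 0.000204), ccsA, a factor for heme attachment to cytochrome c, by 1.26 (adjusted p = 7.10e-06), and matK, the plastid intron maturase, by 0.98 (adjusted p = 0.000669). Of 7 such genes 6 fell, and ycf3 did not pass.

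Photosystem I was the one large complex with every measured gene lower, 5 of 5, with a median of -1.36. The reaction centre gene psaA gave 2239, 1330.0 and 723 with FAMA-EAR and 4534, 5139.6 and 5498.5 in controls, and fell by 1.95 (SE 0.261, adjusted p = 0.000117). Its FAMA-EAR arrays spread widely among themselves, and none reached a control array. The iron-sulfur subunit psaC gave 160.4, 159 and 184 against 625.5, 848 and 685, with little spread, and fell by 1.97 (SE 0.142, adjusted p = 6.29e-08). The call of psaJ (-0.70) ended with equal array medians (adjusted p = 0.0838), with array weights (adjusted p = 0.0538) and without the first or second FAMA-EAR or the first or second control array (adjusted p = 0.0835 to 0.166).

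In photosystem II 7 of 15 genes fell, with a median of -0.47. Its antenna gene psbB fell by 1.32 (adjusted p = 9.41e-05), and psbT, a small subunit encoded beside it, gave 173, 188 and 204 against 565.5, 518 and 532 and fell by 1.42 (SE 0.156, adjusted p = 9.36e-06). The D1 gene psbA gave 894, 745 and 681 with FAMA-EAR, 1109, 1409 and 1243 in controls and 1662.5, 1756 and 1494 with FAMA. It fell by 0.69 with FAMA-EAR (adjusted p = 0.00572, and 0.0704 with no variance trend) and rose by 0.38 with FAMA (adjusted p = 0.0479). The subunits psbE, psbF, psbL and psbJ, of which the first pair form cytochrome b559, lay between -0.03 and 0.04. The call of psbD (-1.07) ended without the second or the third FAMA-EAR or the second control array (adjusted p = 0.0543 to 0.0719).

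In the cytochrome b6f complex 4 of 6 genes fell, with a median of -0.82. Its small subunit petL gave 989, 769.7 and 614 with FAMA-EAR, 3369.9, 2904 and 2910.5 in controls and 4038, 5189.5 and 3898 with FAMA, 3 groups with no overlap. It fell by 1.95 with FAMA-EAR (SE 0.153, adjusted p = 1.39e-07). With FAMA it was 0.50 above the control (adjusted p = 0.0205), and the difference between the induced groups was -2.45 (adjusted p = 1.47e-10). The cytochrome f gene petA fell by 1.20 (adjusted p = 0.000521).

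ATP synthase genes were divided, with 3 of 6 lower and a median of -1.14. The 3 genes atpA, atpF and atpH, which lie side by side, fell by 2.03, 1.80 and 1.64 (adjusted p = 2.49e-06, 2.49e-06 and 0.00211), and atpH did not pass with no variance trend (adjusted p = 0.0531). Next to atpH, atpI stood at -0.64 and did not pass (adjusted p = 0.222). Signals of atpA, the alpha subunit, were 1616.5, 1332 and 1115 with FAMA-EAR and 4663, 6178 and 5869 in controls. The beta and epsilon subunit genes atpB and atpE, transcribed together elsewhere in the genome, stood at -0.11 (adjusted p = 0.676) and 0.05 (adjusted p = 0.893). Signals of atpB were 26453, 24883 and 21067 with FAMA-EAR and 24507, 28293 and 25182 in controls, and those of atpE 23337, 20685 and 18405 and 18783, 20280.5 and 20873.

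Subunits of the NDH complex, which carries electrons around photosystem I, fell in 8 of 10 genes, with a median of -1.16. The gene ndhD gave 693, 814.5 and 663 with FAMA-EAR and 2433, 4021 and 2788 in controls, and fell by 2.03 (SE 0.207, adjusted p = 4.31e-06). Signals of ndhH were 107, 103 and 60.9 against 292.5, 553 and 415, and those of ndhA 1556, 1177 and 1017 against 3763, 4679 and 4077. These falls were 1.98 (adjusted p = 0.000331) and 1.74 (adjusted p = 3.26e-07), with no overlap. The exceptions were ndhC (-0.04, adjusted p = 0.9) and ndhF (-0.01, adjusted p = 0.997).

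Rubisco's large subunit gene rbcL gave 359, 292 and 212 with FAMA-EAR, 693, 1149 and 975 in controls and 662, 1002 and 789 with FAMA, and fell by 1.64 (SE 0.246, adjusted p = 0.000423). No FAMA-EAR array reached an array of the other groups.

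Of the 4 genes of the plastid's own RNA polymerase, rpoB, rpoC1 and rpoC2 fell by 1.46, 1.63 and 1.27 (adjusted p = 0.00187, 7.10e-06 and 0.00674). The fall of rpoB was -0.93 with an offset of 100. Signals of rpoC1 were 418, 312 and 353 with FAMA-EAR and 1033, 1234 and 1191 in controls. The fourth, rpoA, encodes the alpha subunit and stood apart, at 9233, 9272 and 8416 with FAMA-EAR and 6239, 7264 and 7380.1 in controls. All its FAMA-EAR arrays lay above all control arrays, with a log2 difference of 0.37 (SE 0.156, adjusted p = 0.253) that did not pass. The call of rpoC2 ended without the third FAMA-EAR array (adjusted p = 0.0531) and in a fit without the variance trend (adjusted p = 0.0835).

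Plastid ribosomal protein genes fell in 8 of 15, with a median of -0.75. The gene rps2 gave 817, 790.4 and 518 against 1706, 2163 and 1722 and fell by 1.39 (SE 0.203, adjusted p = 0.000314), and rps15 and rps4 fell by 1.32 (adjusted p = 0.000914) and 1.11 (adjusted p = 2.42e-05). On the other side, rps3 gave 8123, 7845 and 8358 with FAMA-EAR and 6202, 7254 and 7159 in controls, without overlap, and rpl22 7861, 7724 and 7167 against 5368, 6286 and 7310.0, with overlap. Their log2 differences of 0.24 (adjusted p = 0.371) and 0.27 (adjusted p = 0.275) did not pass. Against FAMA, rps3, rpl22 and psbZ were higher, by 0.47 (adjusted p = 0.0066), 0.55 (adjusted p = 0.00147) and 0.64 (adjusted p = 0.00123), the 3 plastid genes that were.

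Neighbouring plastid genes, many of which are transcribed together, are shown together next. This grouping, in part into known transcription units, was made after the values were seen, and it is a description. In the stretch from rpoB to atpA, which may hold more than 1 unit, 7 of 8 measured genes fell, with a median of -1.54, and atpI did not pass. In the unit from ndhH to ndhD, which includes psaC, 7 of 7 fell, with a median of -1.74. The psbB to petD unit had 4 of 5 lower and a median of -1.27. Genes of the psaA to rps14 unit all fell, 3 of 3, with a median of -1.08. By contrast 0 of 4 genes of the psbE unit fell (median 0.01), 0 of 2 in atpB and atpE (median -0.03), and 1 of 7 from rps19 to rpoA (median 0.13), the 1 being rpl16 (-0.94, adjusted p = 0.00192). Other units were divided. From ndhC to ndhJ 2 of 3 genes fell, with values from -1.12 to -0.04, and of psbD and psbC 1 of 2 fell, with values of -1.07 and -0.47. The 24 genes that did not pass include every measured gene of 2 of the units.

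**Figure D3:**
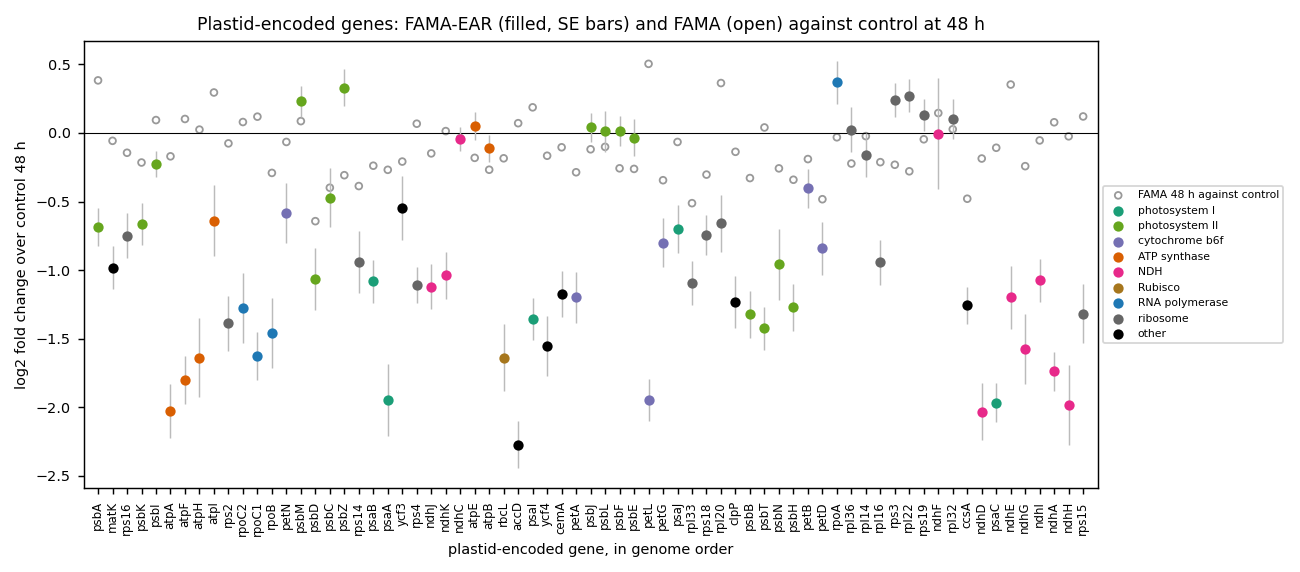
Log2 fold change over the 48 h control (y axis) of 69 plastid-encoded genes in genome order (x axis), for FAMA-EAR (filled, coloured by complex, bars are SE) and for FAMA (open). FAMA-EAR points run from -2.27 in accD to 0.37 in rpoA, and neighbours such as psbJ, psbL, psbF and psbE lie together near 0.

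The 3 FAMA-EAR arrays did not share the plastid fall equally. The median over the 69 genes, as log2 above or below the control mean, was -0.73, -1.02 and -1.15 on FAMA-EAR arrays 1, 2 and 3. It was -0.14, 0.12 and 0.02 on the control arrays and -0.36, 0.05 and -0.04 on the FAMA arrays. The third FAMA-EAR array held the lowest signal of the 3 in 30 of the 45 genes that fell, and the second and first in 10 and 5. Leaving out any 1 of the 6 arrays left 37 to 44 plastid genes lower and a median of -1.06 to -0.88. The same measure was 0.27, 0.26 and 0.55 in the 4 h controls, so plastid signals of the younger controls lay above those of the older ones.

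Measures of RNA on the arrays differed between the groups as well. The control probe set for 5S ribosomal RNA gave 39.9, 75.9 and 43.6 with FAMA-EAR, 147.4, 112.6 and 151.2 in controls and 176.7, 99.8 and 168.7 with FAMA, so all FAMA-EAR arrays were below all others. The probe set for 25S ribosomal RNA overlapped between FAMA-EAR (61.2, 137.3 and 116.8) and controls (104, 145 and 136.1). The log2 ratio of 3' over 5' probe sets, which rises when RNA is shortened, had a mean over actin and GAPDH of 0.558, 0.731 and 0.533 with FAMA-EAR, 0.301, 0.495 and 0.297 in controls and 0.199, 0.191 and 0.214 with FAMA. For actin alone it was 1.16, 1.15 and 1.08 with FAMA-EAR and 0.819, 0.956 and 0.957 in controls, with no overlap, and 0.521, 0.509 and 0.578 with FAMA. For GAPDH alone it was -0.0452, 0.317 and -0.0101 with FAMA-EAR and -0.217, 0.0348 and -0.363 in controls, and these 2 groups overlapped. With FAMA the GAPDH ratio was -0.123, -0.127 and -0.15. The order of the 3 FAMA-EAR arrays was not the same for the 2 genes. Plastid transcripts mostly lack stable poly(A) tails, and no source used here gives the priming of the cDNA. The part of these measures in the plastid result was not tested.

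**Figure D4:**
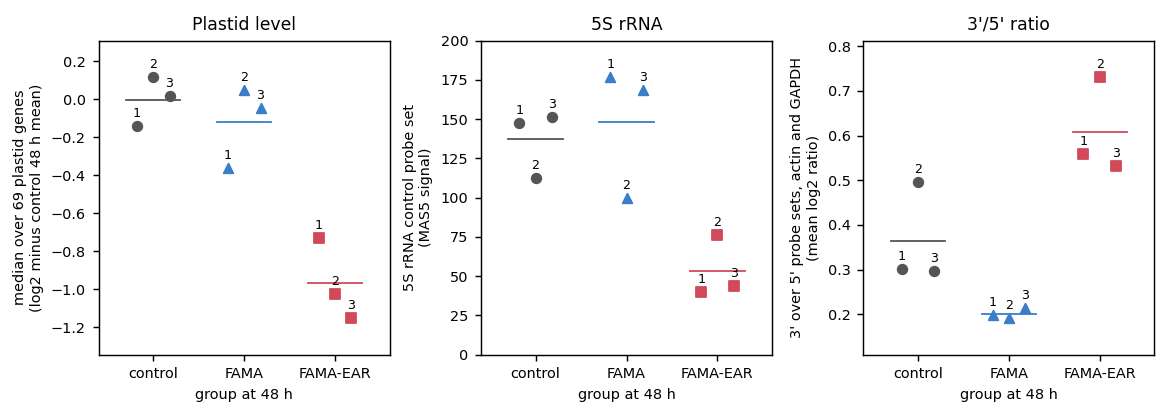
Values per array (points, numbered by replicate, with the group mean as a line) for control, FAMA and FAMA-EAR at 48 h: the median log2 level of 69 plastid genes, the MAS5 signal of the 5S ribosomal RNA control, and the 3' to 5' log2 ratio as a mean of actin and GAPDH. FAMA-EAR arrays are the lowest in the first 2 panels and the highest in the last.

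Probe sets with a mitochondrial symbol gave no calls against the control. Symbols starting with nad, cox, ccb, matR or orfX were taken, so any other mitochondrial gene is not counted here. They lie among 77 probe sets for 1 gene absent from the reference, of which 1 rose and 0 fell. Of 23 probe sets for 16 genes with a mitochondrial symbol, 0 passed in limma, 7 had an unadjusted p below 0.05, and 18 were negative, with a median of -0.29 and a range from -1.33 to 0.40. Against FAMA 6 of them were lower and 0 higher, with a median of -0.47, where 11.1% and 11.6% of all probe sets were. The 36 probe sets assigned to the region of chromosome 2 that carries the mitochondrial copy had a median of -0.41, with 27 negative, and AT2G07751 was the 1 that passed. Against the control 3.2% of all probe sets passed in either direction. Sets of this size would often hold few or no calls, so nothing is read from these counts. The median per array over the mitochondrial symbols was -0.24, -0.12 and -0.43 on FAMA-EAR arrays 1, 2 and 3, and -0.03 to -0.008 in controls.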

How the data were processed

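Affymetrix ATH1 arrays measured biotin-labelled cRNA from whole seedlings, 1 array per sample. The authors deposited 1 intensity per probe set and array, made with MAS5 per the submitters' processing notes; no source used here gives its version, the scaling or a genome build. MAS5 scales each array alone and subtracts mismatch signal, so dim probe sets are noisy.

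Intensities were transformed as log2(signal + 20) and tested in limma 3.58.1 (R 4.3.3), 15 arrays in 5 groups in 1 fit with 10 residual degrees of freedom, a variance trend and two-sided tests. The fit was also run on simulated arrays with independent noise and changes added only to brighter probe sets. That run does not cover changes of dim genes or an array that stands apart. With no counts in the files, precision is limited by the number of arrays. FAMA-EAR at 48 h was tested against control and FAMA at 48 h.

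Gene names came from the platform annotation, matched to TAIR10.1 names: 13367 probe sets had 1 nuclear gene, 69 a plastid gene, 77 a gene absent from those names, 503 several genes and 8730 none. Of the 77, 23 had a mitochondrial symbol. FAMA is listed there as FMA. A gene is read by its probe set of highest mean.

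Named genes are FAMA, the 15 largest nuclear rises and falls (adjusted p below 0.05, no overlap, mean of at least 100 in the higher group), plastid genes with the 10 largest falls, the largest per class and the 4 highest, and up to 6 passing members per list. Where none passed, the 2 largest were followed, not all printed. Lists held 294 genes, of which 49 were measured, and 19 of 29 families sought by description had a member. Words for AP2/ERF factors first matched clone names and were narrowed, which left no member. Members and lists were chosen with earlier results of these data known. Further plastid genes, nuclear genes with a name and the UGT and GSTU symbol sets were added after their values were seen. Same-numbered arrays did not deviate together (correlations of -0.019 to 0.026). Alternatives varied offset, filter, scaling, variance model, arrays fitted, replicate block and single arrays.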

Additional observations from a re-analysis of the deposited data

Results flagged for a closer look

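In 16 of the genes named or followed, FAMA-EAR and FAMA moved the signal to opposite sides of the same 48 h controls, each past the threshold in limma, and the difference between the induced groups passed as well. They come from 60 genes named by the rule with a call and 73 other called genes. Those genes were picked for calls with FAMA-EAR, and the share over all probe sets was not counted. Nothing is therefore read from the count. The comparisons share their controls, so the difference itself (FAMA-EAR minus FAMA, log2) is given.

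It was lower with FAMA-EAR for EXPA16 (-5.98), BHLH101 (-3.86), AtVEX1 (-2.89), petL (-2.45), AT1G60730 (-2.16), UGT73B4 (-1.88), TBL37 (-1.26), UGT87A2 (-1.17), GSTU22 (-1.14) and psbA (-1.07). It was higher with FAMA-EAR for AT5G62360 (2.05), THI2.2 (1.58), CCL (1.25), TAPX (1.21), HEME2 (1.21) and COR47 (0.66). AtVEX1 gave 21.7, 14.6 and 15.5 with FAMA-EAR, 56.9, 56.5 and 52.7 in controls and 224, 261 and 286 with FAMA, but its fall below the control ended whichever of the 6 arrays was left out (adjusted p = 0.0578 to 0.12). THI2.2, a thionin, gave 1908, 1613 and 1869, 1113, 1174 and 1027 and 482, 569 and 732.5 in the same order, and its rise over the control ended without any 1 array except the second FAMA-EAR array (adjusted p = 0.054 to 0.104). CCL gave 5166, 5494.5 and 4758, 3039, 3412 and 3558 and 2183, 2069 and 2195. What sets these genes apart was not tested.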

How the results depend on the processing

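The count of 729 changed probe sets became 463 with equal array medians, 322 with no variance trend, 1217 with array weights, 1181 with only the 9 arrays at 48 h and 1176 without the third FAMA 4 h array. In the same order, 111, 67, 284, 275 and 281 nuclear probe sets rose (173 in the main setting) and 105, 79, 294, 279 and 290 fell (165). Leaving out 1 of the 6 arrays gave 358 to 519 in all, 71 to 120 nuclear rises and 84 to 119 nuclear falls, the fewest in each case without the second FAMA-EAR array. The cause was not tested. Plastid falls numbered 33 with no variance trend and 37 to 44 without 1 array, and against FAMA 38 to 43. With the replicate number as a block, 749 probe sets changed, 172 nuclear ones rose and 170 fell, and 5218 differed from FAMA. Same-numbered arrays did not deviate together over all probe sets, and whether they shared a culture or a batch is not known. Of 60 genes named by the rule with a call, 36 kept it in every alternative run, 24 lost it in at least 1 and 0 turned sign, and of 73 other called genes followed, 31 kept it, 42 lost it and 0 turned. Of 47 named without a call 6 gained one. Signs turned for genes near 0 without a call. TRY was 0.0109 with an offset of 100 and 0.0315 with array weights, ndhF was 0.0162 with an offset of 1, 0.0128 with equal medians and 0.0363 after quantile normalization, psbL was -0.0292 with array weights and psbF was -0.00856 with array weights. Without 1 of the 6 arrays the values ran from -0.32 to 0.238 for AT5G15700, -0.232 to 0.0284 for PSBY, -0.0558 to 0.0766 for BCAT4, -0.504 to 0.454 for TRY, -0.0425 to 0.11 for AQI, -0.0871 to 0.0141 for ndhC, -0.137 to 0.0736 for psbE, -0.363 to 0.213 for ndhF, -0.0773 to 0.127 for psbL, -0.0722 to 0.146 for psbF, -0.141 to 0.204 for rpl36, -0.0284 to 0.077 for psbJ and -0.0327 to 0.138 for atpE. A detection call was not used here, so probe sets near the floor have no certain level, and 3 arrays a group leave changes of moderate size below the threshold.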
